A study of Mus musculus with 6 samples.

Results

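Genes of histone lysine methyltransferases and demethylases were examined for 5-hydroxymethylcytosine (5hmC) in mouse blood cells labelled with intact or deleted Tet2. The set comprised the 34 protein-coding genes, of 21887 in the RefSeq table of build GRCm38, whose symbols start with Kmt, Kdm or Setd followed by a digit. The DNA came from Kit-enriched bone marrow cells of C57BL/6 mice with the genotype Tet2fl/fl;CreER, in which Cre recombinase becomes active on exposure to 4-OHT (4-hydroxytamoxifen). All cultures had been transduced with the retrovirus MigR1-AE-IRES-GFP, which carries the leukaemia fusion protein AML1-ETO, and all were grown with SCF, IL-3 and IL-6. Control cultures received ethanol and are labelled Tet2fl/fl (here flox, 2 libraries). Experimental cultures received 200 nM 4-OHT for 2 passages (4 days) and are labelled Tet2-/- (here KO, 2 libraries). Only the KO cultures were given the drug, so the drug, active Cre and loss of Tet2 cannot be told apart. From both, at passage 5, a sort kept cells positive for GFP and CD16/32 and negative for CD11b and Gr1, and fragments bound by an antibody to 5hmC were sequenced. Peak lists of DNA hold no expression, so the cell type was not checked against marker genes.

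Many proteins of this set, which was chosen by symbol, write or remove methyl groups on lysines of histones H3 and H4. Most KMT and SETD proteins transfer the methyl group with a SET domain. Methylation of H3 lysine 4 marks promoters and enhancers, methylation of H3 lysine 36 marks transcribed gene bodies, and methylation of H3 lysines 9 and 27 accompanies silent chromatin. Of the demethylases, KDM1A and KDM1B are flavin-dependent oxidases. The other KDM families carry a Jumonji domain and use iron and 2-oxoglutarate, the same cofactors that TET enzymes use to oxidise 5-methylcytosine. KMT2A, the MLL protein of many acute leukaemias, and the demethylases KDM2A and KDM2B also have CXXC domains that bind unmethylated CpG.

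The authors' lists held 116539 to 122101 peaks per library, covering 110.3 to 113.3 Mb. The number of reads behind them is unknown. Called length is the number of bases under peaks in a gene span extended by 5 kb at each end. Tet2 itself had 1981 and 3509 bp in the flox pair, and 2432 and 2448 bp in the KO pair, which checks nothing about the deletion, since the excised stretch is not named. Whether the replicates come from separate cultures is not stated, so the tests measure the spread between these libraries, which may be technical.

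The start sites of the set were CpG-rich. Most lay outside peaks, as did most start sites of all protein-coding genes. RefSeq promoter windows (build GRCm38.p6, 250 bases before to 50 after a listed start) were given for 26 of the 34 genes, with 36 windows in all. No window was listed for Kdm2a, Kdm3b, Kdm4b, Kdm5a, Kdm6b, Kmt2b, Kmt2e and Setd1b. The motif CG, which reads the same on both strands, occurred at a median of 26.5 places per window, against 13.0 over the 21263 windows of all protein-coding genes in the table. At least 1 CG was present in 94.4% of the windows of the set and in 95.4% of all windows, and at least 10 in 88.9% and 56.8%. A peak of any library reached into 7 of the 36 windows (19.4%, against 14.0% of all windows). In all 4 libraries 1 window was reached (2.78%, against 5.28% of all windows). The windows below are those of Kmt5c, reached in all 4 libraries, of Setd1a and the inner distal start of Kdm2b, reached in KO libraries alone, of the outer start of Kdm2b, and of Kmt2c, reached in none. They are written 5′ to 3′ along the gene, with each CG in capitals.
Kmt5c (chr7:4739877-4740176, plus strand): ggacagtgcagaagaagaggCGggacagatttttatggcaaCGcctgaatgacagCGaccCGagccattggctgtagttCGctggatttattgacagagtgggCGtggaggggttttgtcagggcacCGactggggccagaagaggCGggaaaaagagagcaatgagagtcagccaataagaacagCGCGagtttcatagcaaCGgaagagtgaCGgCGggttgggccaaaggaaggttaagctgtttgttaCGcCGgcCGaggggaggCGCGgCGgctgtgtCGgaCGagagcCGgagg
Setd1a (chr7:127777139-127777438, plus strand): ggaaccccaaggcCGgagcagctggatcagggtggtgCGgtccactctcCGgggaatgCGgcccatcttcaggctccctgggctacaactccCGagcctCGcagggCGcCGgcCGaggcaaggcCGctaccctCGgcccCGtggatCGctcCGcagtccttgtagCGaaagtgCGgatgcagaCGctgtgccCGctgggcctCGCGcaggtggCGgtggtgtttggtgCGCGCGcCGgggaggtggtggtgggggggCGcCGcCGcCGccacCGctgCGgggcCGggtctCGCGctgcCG
Kdm2b inner start (chr5:122988458-122988757, minus strand): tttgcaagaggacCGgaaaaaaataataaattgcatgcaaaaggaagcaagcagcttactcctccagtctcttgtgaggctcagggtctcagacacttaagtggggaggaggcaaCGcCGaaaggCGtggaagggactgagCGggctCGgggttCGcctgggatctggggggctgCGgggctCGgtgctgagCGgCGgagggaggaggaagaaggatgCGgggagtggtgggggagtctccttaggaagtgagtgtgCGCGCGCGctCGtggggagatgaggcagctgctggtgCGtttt
Kdm2b outer start (chr5:122989050-122989349, minus strand): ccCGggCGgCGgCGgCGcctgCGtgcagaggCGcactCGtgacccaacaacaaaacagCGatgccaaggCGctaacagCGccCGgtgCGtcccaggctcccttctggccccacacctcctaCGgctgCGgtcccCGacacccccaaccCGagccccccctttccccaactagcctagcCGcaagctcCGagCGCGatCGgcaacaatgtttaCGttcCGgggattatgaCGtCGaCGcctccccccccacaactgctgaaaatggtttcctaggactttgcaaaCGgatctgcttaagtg
Kmt2c (chr5:25498734-25499033, minus strand): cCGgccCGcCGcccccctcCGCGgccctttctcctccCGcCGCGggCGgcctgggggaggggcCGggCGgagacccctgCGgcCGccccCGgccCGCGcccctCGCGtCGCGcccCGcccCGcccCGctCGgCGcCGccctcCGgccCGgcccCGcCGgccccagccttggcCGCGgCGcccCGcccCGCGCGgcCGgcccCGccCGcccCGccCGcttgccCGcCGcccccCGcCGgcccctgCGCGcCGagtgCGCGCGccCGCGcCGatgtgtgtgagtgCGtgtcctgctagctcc

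The Kmt5c window, with 22 CG, lay entirely under a peak in each library (300 of 300 bases). The gene Cox6b2 reaches into the extended span of Kmt5c. KMT5C is the enzyme that trimethylates H4 lysine 20 in heterochromatin. The Setd1a window held 35 CG. Peaks from KO covered it for 81 bases (replicate 1) and 300 bases (replicate 2), and flox peaks for none. The region over this start (chromosome 7, 127777087 to 127778551) was nevertheless called in all 4 libraries, and the flox peaks of 912 and 895 bp began beyond the window, inside the gene. The Kdm2b windows, whose starts lie 592 bp apart, held 18 CG (inner) and 28 CG (outer). The inner was covered for 297 and 300 bases in KO replicates 1 and 2 and for none in flox, and the outer for 300 bases in flox replicate 2 and in KO replicate 1 alone. Presence at these 2 neighbouring starts therefore followed the genotype labels at the inner and not at the outer. The Kmt2c window was the second richest in CG of the set with 56, behind Kdm7a with 65, and neither was reached by a peak. The remaining reached windows belonged to Setd6 (229 bases in flox replicate 2 and 140 in KO replicate 2), Setd4 (153 bases) and Kdm5d (156 bases), the last 2 in KO replicate 1 alone.

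Peaks lay more often just after the listed start than before it. Over the 26 genes with a listed start, the outermost start was taken where several were given. In the bin from 500 to 750 bp after it, 16.6% of bases were under peaks on average over the 4 libraries, against 6.69% over all 17492 genes with a listed start. From 1 to 3 kb before the start, the share was 1.62% in the set and 5.02% over all genes. Within 500 bp on either side it was 6.10% and 9.78% in flox and 11.3% and 10.8% in KO, against 6.16% to 7.06% per library over all genes. Both KO libraries lay above both flox libraries in this window in the set. Over all genes the groups overlapped, with 7.06% and 6.39% in flox and 6.16% and 6.79% in KO. In the set, the peaks of Setd4 and Kdm5d in this window were called in KO replicate 1 alone. The order without these peaks was not tested. A bin that is fully called in 1 gene adds 3.85% to a profile of 26 genes, so these percentages rest on few genes. In some genes the span itself begins before the listed start, at -27673 bp in Setd5, -2872 bp in Kmt2d and -1713 bp in Kdm6a. Bases before the start are then partly inside the gene.

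**Figure D1:**
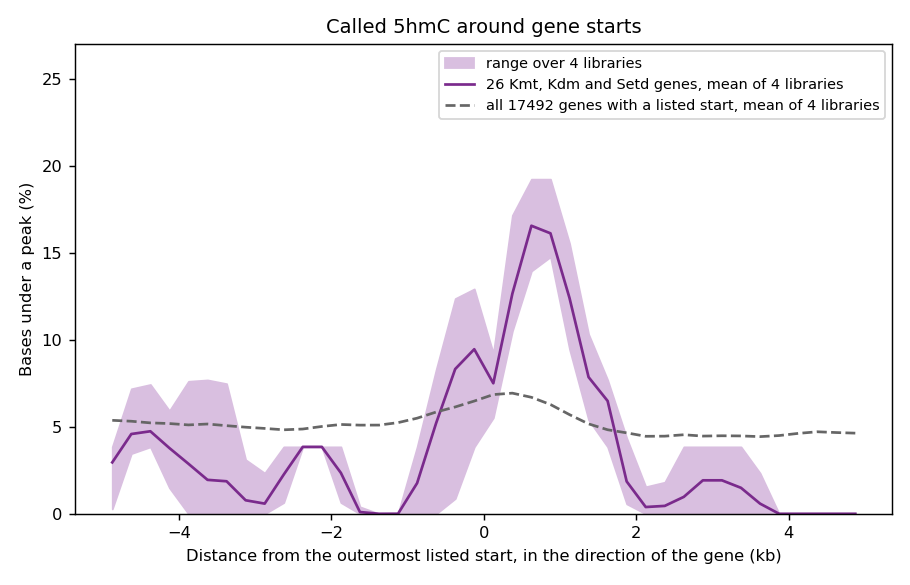
Percent of bases under 5hmC peaks in bins of 250 bp around the outermost listed start, for 26 Kmt, Kdm and Setd genes (line, mean of 4 libraries; band, lowest to highest library) and for all 17492 genes with a listed start (dashed). The set peaks at 16.6% in the bin from 500 to 750 bp after the start and is close to 0 at 1 to 1.5 kb before the start.

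Across whole gene spans the set carried 78.3 and 86.4 kb of called 5hmC in the flox pair and 76.9 and 75.7 kb in the KO pair. Peaks numbered 78 and 85 (flox) and 81 and 80 (KO). Mean called length was thus 82.3 ± 5.75 kb in flox and 76.3 ± 0.865 kb in KO (SD, n = 2 each). Scaled to equal library totals, as for the tests by gene, the sums were 76.8 and 87.1 kb for flox and 77.6 and 75.8 kb for KO. Scaled called length thus overlapped between the groups, as did peak numbers. The overlap in scaled length depended on Kmt2c, the gene of the set with the largest difference above 0. Without Kmt2c the unscaled sums were 75.4 and 82.1 kb in the flox pair, and 71.3 and 67.6 kb in the KO pair. Leaving out a gene picked for its high KO values favours a lower KO sum. The demethylase genes held 41.7 and 46.1 kb in the flox pair, and 40.7 and 33.6 kb in the KO pair. After scaling they held 40.9 and 46.5 kb against 41.0 and 33.7 kb, and these groups overlapped too. The methyltransferase genes held 36.6 and 40.3 kb in the flox pair, and 36.2 and 42.0 kb in the KO pair, with overlapping groups. The spans are long, with a median of 48595 bp against 17169 bp over all protein-coding genes. Per kb of extended span they held less, with 32.8 called bp per kb pooled over the set and 44.9 over all genes. Called length of the 34 genes followed their span weakly (Spearman's rho 0.19, against 0.61 across all 21887 genes, points that share the same 4 libraries and in part the same peaks). In 24 of the 34 genes another protein-coding gene reaches into the extended span, and 9 regions of the set overlap such a gene.

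**Figure D2:**
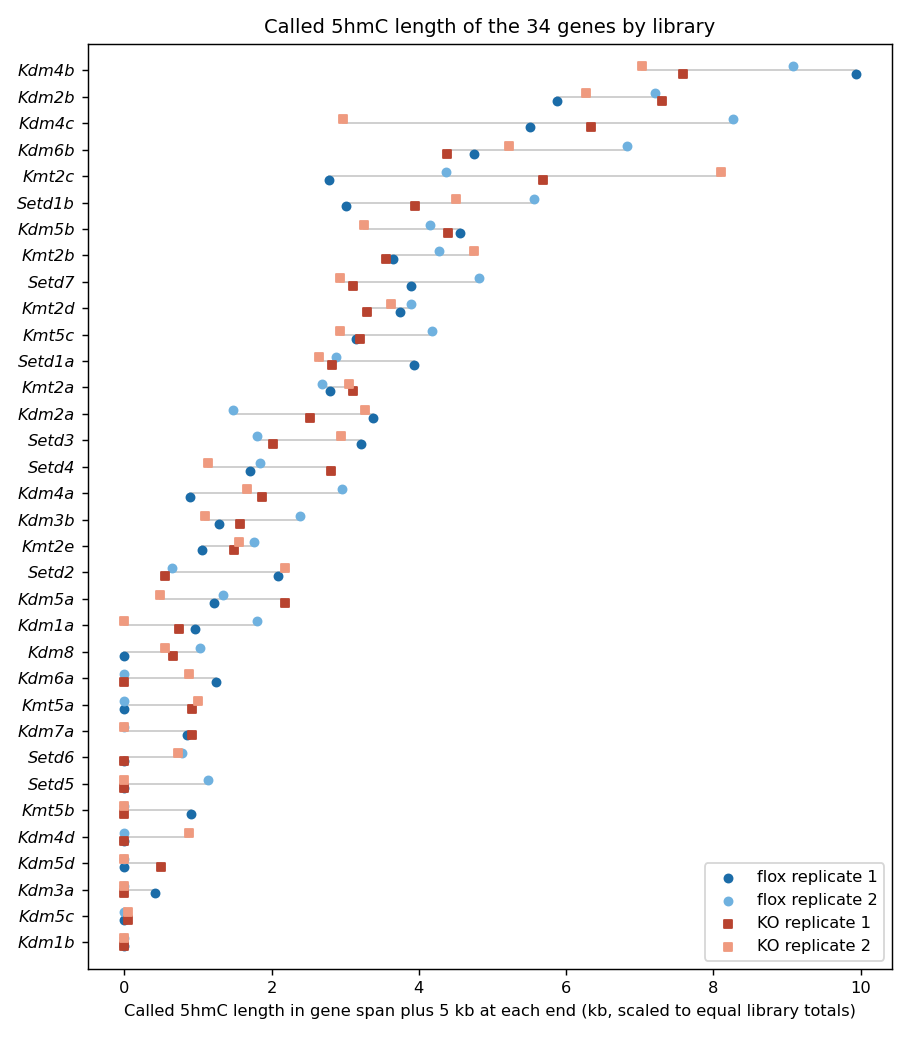
Called 5hmC length (kb, scaled to equal library totals) in the span plus 5 kb of each of the 34 genes, with 1 point per library (circles flox, squares KO) and a grey line over the range. Kdm4b has the most, with both KO libraries left of both flox libraries, Kmt2c has both KO libraries to the right, and Kdm1b has none.

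No gene of the set passed the test of KO against flox. On simulated data that test missed most planted log2 differences of size 1 (29 of 100 recovered), so differences of this size can go uncalled. Called length was scaled to equal totals and tested as log2(bp + 500) over the 14162 genes that averaged 500 bp or more, on which scale differences of genes with little called length are understated. Limma called 0.0% of these genes at a Benjamini-Hochberg adjusted p under 0.05 (869 genes, 6.14%, had an unadjusted p under 0.05). By number of peaks it called 0.0915% of 13120 genes and none of the set. Of the 34 genes, 24 were tested. None of these 24 was called and 1, Kmt2c, had an unadjusted p under 0.05. Their log2 differences ran from -1.22 to 0.87 with a median of -0.084, beside a median of -0.038 over all tested genes. Of the 24, 13 were below 0 and 11 above, where 54.6% of all tested genes were below 0. The KO pair lay wholly below the flox pair in 5 of the 24, where this held for 20.7% of all tested genes, and wholly above in 2 of the 24, against 14.6%. Neither count stands out from that background. The groups overlapped in the other 17.

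**Figure D3:**
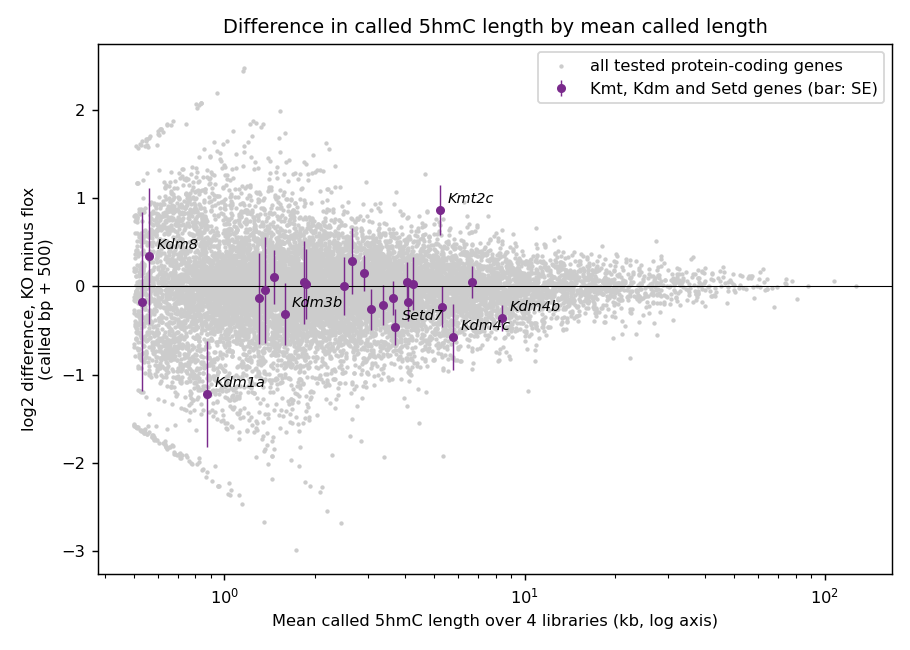
The log2 difference in called length (KO minus flox) against mean called length (kb, log axis) for all 14162 tested genes (grey) and the 24 tested Kmt, Kdm and Setd genes (purple, bars SE). Most of the set lies within the grey cloud near 0, with Kmt2c at 0.87 and Kdm1a at -1.22 as its extremes.

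Among the 6 genes for the H3 lysine 4 methyltransferases, all tested, 2 differences were below 0 and 4 above (median 0.043). Kmt2c encodes the enhancer methyltransferase MLL3 and lies on chromosome 5 (25271795 to 25498855). It had 2827 and 4330 bp in the flox pair, and 5639 and 8095 bp in the KO pair (log2 difference 0.87, SE 0.28, limma adjusted p = 0.773, unadjusted p = 0.0241). The KO pair lay wholly above the flox pair, with KO replicate 2 the highest. In the 3 regions called in every library, Kmt2c held 2827 and 3420 bp in the flox pair, and 3819 and 3752 bp in the KO pair. Outside these regions it held 0 and 910 bp in the flox pair, and 1820 and 4343 bp in the KO pair, so most of the gap came from peaks not called in all libraries. A region in the gene at 25389884 to 25391369 was called in both KO libraries (1078 and 1486 bp, authors' peak scores 55.07 and 133.85) and in neither flox library. Another 3 regions, at 25317862 to 25318738, 25455349 to 25456027 and 25479091 to 25479799, were called in KO replicate 2 alone, with scores of 75.91, 55.69 and 50.45. Without KO replicate 2 the difference of Kmt2c was 0.63 (unadjusted p = 0.158) and without flox replicate 1 it was 0.58 (0.129). It was 1.16 without flox replicate 2 (0.0253) and 1.11 without KO replicate 1 (0.0436). In these fits 1 group has a lone library, which is assumed to vary like the other group. Without the 10% of peaks with the lowest scores the difference was 0.37 (0.518). With peaks of score 100 or more it was 1.68 (0.114), and with the 50000 highest scored peaks 1.55 (0.136). Every peak of flox replicate 1 in Kmt2c scored under 100, the highest at 97.38, so that library had no called base at the cut of 100. With the replicate block the unadjusted p of Kmt2c was 0.0053, and across all alternatives the adjusted p ran from 0.568 to 0.929.

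Kmt2a, the MLL1 gene on chromosome 9 (44803355 to 44881352), had 2842 and 2656 bp in the flox pair, and 3085 and 3050 bp in the KO pair (log2 difference 0.15, SE 0.20, limma adjusted p = 0.929). The difference is smaller than its standard error, although the groups did not overlap, and with peaks of score 100 or more it was -0.049. A region at 44853330 to 44854456 in the gene was called in both KO libraries (1127 and 706 bp) and in neither flox library. Next to the start of Kmt2a, a region at 44879189 to 44881100 was called in all 4. Kmt2d, the MLL4 gene on chromosome 15 (98831669 to 98874077), had 3816 and 3858 bp in the flox pair, and 3268 and 3612 bp in the KO pair (-0.13, SE 0.19, adjusted p = 0.938). Its 2 regions were each called in all 4 libraries, so the values of Kmt2d differ by the width of shared peaks alone. Together with KMT2C, KMT2D deposits the monomethyl mark of enhancers.

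Setd1a, a catalytic subunit of the complexes that trimethylate H3 lysine 4 at promoters, lies on chromosome 7 (127777389 to 127800122). It had 4006 and 2853 bp in the flox pair, and 2803 and 2647 bp in the KO pair (log2 difference -0.26, SE 0.23, limma adjusted p = 0.881). The distance between the groups came mostly from flox replicate 1, which alone had a peak at 127795525 to 127796719, and without that library the difference was -0.061. With peaks of score 100 or more it was 0.18. Its paralog Setd1b on chromosome 5 (123142040 to 123168630) had 3068 and 5519 bp in the flox pair, and 3913 and 4504 bp in the KO pair, with the KO values between the flox values. Kmt2b on chromosome 7 (30568855 to 30589056), the MLL2 gene, had 3721 and 4236 bp in the flox pair, and 3529 and 4751 bp in the KO pair, where the flox values lay between the KO values. Both were among the 5 genes with the most called length per kb, at 116.4 (Setd1b) and 134.5 bp per kb (Kmt2b).

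**Figure D4:**
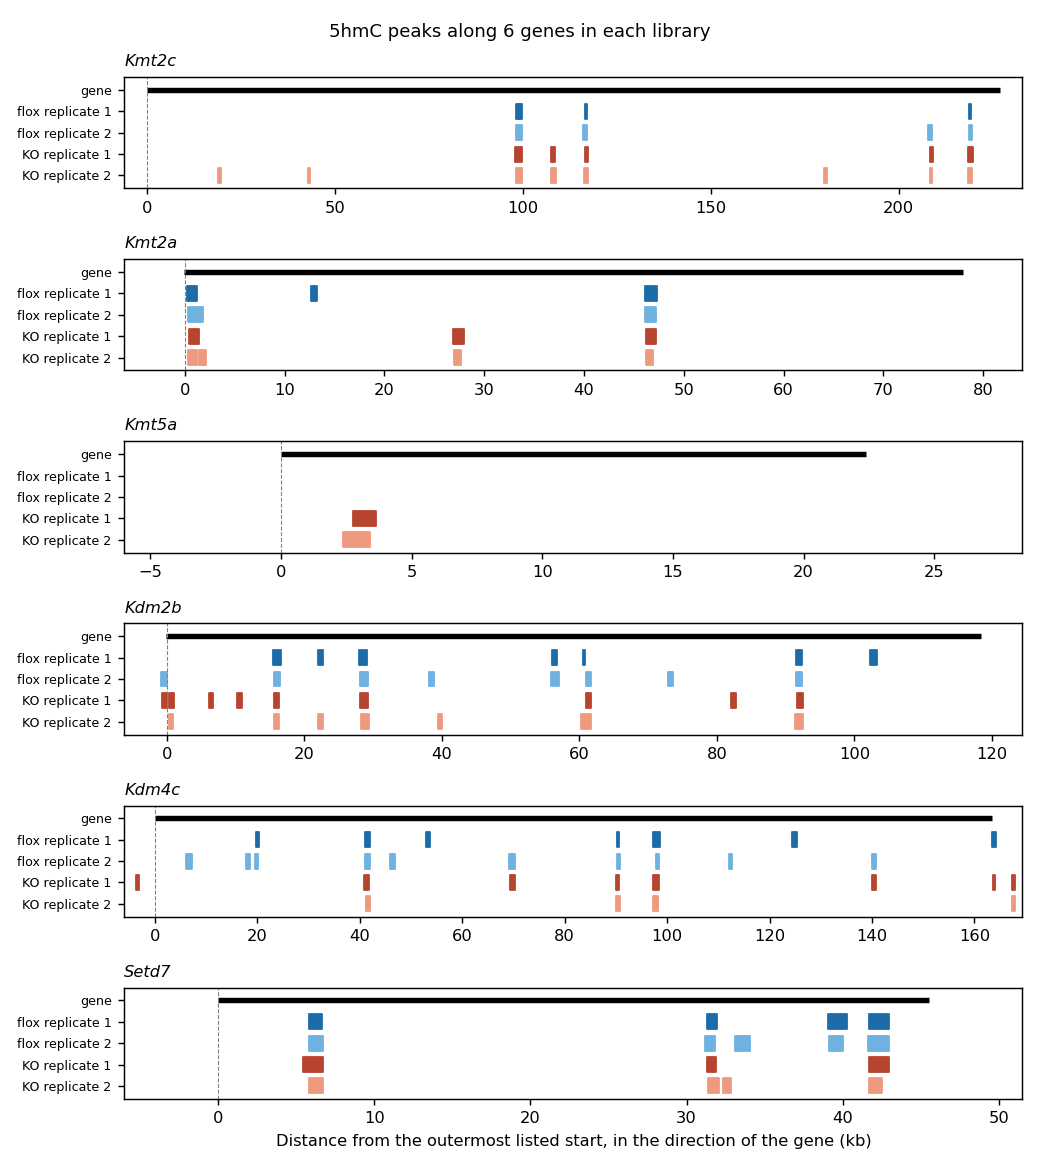
Peaks of each library (coloured bars, 1 row per library) along 6 genes of the set, by distance in kb from the outermost listed start (dashed line), with the gene span in black. In Kmt5a only the KO rows hold a peak, in Kmt2c 1 bar near 108 kb is in both KO rows alone, and in Setd7 1 bar near 40 kb is in both flox rows alone.

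The other methyltransferases and SET proteins counted 10 genes, of which 6 were tested, 3 with a difference below 0 and 3 above (median -0.016). Setd7 on chromosome 3 (51515318 to 51560823) encodes a monomethyltransferase of H3 lysine 4 and of many other proteins. It had 3968 and 4782 bp in the flox pair, and 3083 and 2920 bp in the KO pair (log2 difference -0.46, SE 0.21, limma adjusted p = 0.824). The KO pair lay wholly below the flox pair. A region inside Setd7 at 51520563 to 51521760 was called in flox (1198 and 902 bp, scores 56.15 and 89.58) and not in KO, beside 3 regions called in all 4 libraries. The sign of this difference turned to 0.14 when the 10% of peaks with the lowest scores was left out. Setd3 on chromosome 12 (108106431 to 108179345) encodes the actin histidine methyltransferase. It also had a flox-only region (108141902 to 108142723, 822 and 486 bp), while its total of 3271 and 1790 bp in the flox pair, and 2003 and 2934 bp in the KO pair overlapped between the groups.

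Kmt5a, which encodes the monomethyltransferase of H4 lysine 20, had no called base in either flox library and 905 and 1006 bp in KO. All of it came from 1 region at chromosome 5, 124442312 to 124443581, inside the gene (124439930 to 124462311) and between its listed starts at 124439930 and 124445499. The scores of this region were 53.51 and 66.89, close to the lowest score of 50 in the lists. With a mean of 480.0 bp, Kmt5a was just under the minimum for the test. When no minimum was set, its log2 difference was 1.55 (SE 0.49, limma unadjusted p = 0.0237, adjusted p = 0.754). Kmt5c on chromosome 7 (4740092 to 4747514) had the most called length per kb of extended span in the set (193.2 bp per kb). Of its 4 regions, only that at 4739590 to 4741573 touched the gene, and the others lay in the flanks. Kmt5c held 3204 and 4143 bp in the flox pair, and 3178 and 2933 bp in the KO pair. The groups overlapped once libraries were scaled to equal totals. Kmt5b, whose product adds further methyl groups to H4 lysine 20, had 921 bp in flox replicate 1 and none elsewhere. Setd2 (chromosome 9, 110532500 to 110618633), whose product places the trimethyl mark on H3 lysine 36, had 2133 and 643 bp in the flox pair, and 547 and 2175 bp in the KO pair, so that replicates of the same genotype differed more than the genotypes did. Kmt2e, an MLL family gene, had 1 region at 23501484 to 23503284 on chromosome 5, near 1 end of its span (23433036 to 23504235), called in all 4 libraries.

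Of the 18 demethylase genes, 12 were tested, 8 with a log2 difference below 0 and 4 above. Over all tested genes 54.6% were below 0. The median was -0.17, against -0.038 over all tested genes. For the H3 lysine 4 demethylases, 3 of 6 genes were tested and all 3 were below 0. Kdm5a (-0.13, SE 0.52) and Kdm5b (-0.18, SE 0.22) differed by less than their standard errors. Without KO replicate 2 they stood at 0.59 and 0.015, and without KO replicate 1 at -0.86 and -0.37. Kdm1a encodes LSD1, a demethylase of H3 lysine 4 that acts with CoREST corepressors in blood cells, and lies on chromosome 4 (136550533 to 136602787). It had 978 and 1791 bp in the flox pair, and 735 and 0 bp in the KO pair (log2 difference -1.22, SE 0.60, limma adjusted p = 0.827). This was the widest fitted gap below 0 in the set, and without KO replicate 2, the library at 0, it was -0.56, and -1.88 without KO replicate 1. Kdm5b on chromosome 1 (134560178 to 134632878), a gene of a Jumonji demethylase of H3 lysine 4, had 4645 and 4112 bp in the flox pair, and 4363 and 3258 bp in the KO pair. The groups overlapped, although a region in the gene at 134629232 to 134630520 was a flox-only call (1258 and 1187 bp). Kdm5a, of the same family, had 1248 and 1326 bp in the flox pair, and 2164 and 481 bp in the KO pair, with the lowest and the highest value both in KO.

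Genes of H3 lysine 36 and lysine 9 demethylases included the 3 with the most called 5hmC of the set, Kdm4b, Kdm2b and Kdm4c. Of these 10 genes 7 were tested, 3 with a difference below 0 and 4 above (median 0.046). Kdm4b on chromosome 17 (56325970 to 56403774) encodes a Jumonji demethylase of H3 lysine 9 and had 10122 and 9004 bp in the flox pair, and 7520 and 7030 bp in the KO pair (log2 difference -0.36, SE 0.15, limma adjusted p = 0.815). The KO pair lay wholly below the flox pair, and the difference stayed below 0 in all 16 alternatives with a value (-0.80 to -0.20). Of its 7 regions, 6 were called in all 4 libraries and the seventh, at 56342639 to 56344200, in all but KO replicate 1. In the region beyond the gene at 56405364 to 56407916 peaks spanned 2553 and 1876 bp in the flox pair, and 1409 and 744 bp in the KO pair. Over the gene span alone, without this flank, the difference was -0.21 (adjusted p = 0.836).

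Kdm2b on chromosome 5 (122870664 to 122989270) encodes a demethylase that brings a Polycomb complex to CpG islands. It had 5987 and 7145 bp in the flox pair, and 7241 and 6263 bp in the KO pair. The total overlapped between the groups, but Kdm2b had 1 region of each genotype. The region at 122931995 to 122933230 was called in flox alone (742 and 1236 bp) and the region at 122988003 to 122988766, over the inner distal start printed above, in KO alone (752 and 516 bp, scores 71.59 and 73.5). Kdm4c on chromosome 4 (74242497 to 74405864), which acts on H3 lysine 9, showed the same mixture. It had 5613 and 8191 bp in the flox pair, and 6283 and 2972 bp in the KO pair, a flox-only region in the gene (74262041 to 74262799) and a KO-only region beyond it (74409902 to 74410399). KO replicate 2 was the lowest of the 4 at Kdm4c, and KO replicate 1 lay between the flox libraries. Kdm2a on chromosome 19, the paralog of Kdm2b, had 3441 and 1462 bp in the flox pair, and 2500 and 3261 bp in the KO pair, with 1 region at the edge of its span (4396471 to 4398296, overlapping 9430078G10Rik) called in all 4. Kdm3b, Kdm4a and Kdm8, the other tested genes of this group, had 0 to 2929 bp per library with overlapping groups, as did Setd4 among the SET proteins with 1131 to 2788 bp.

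The H3 lysine 27 demethylase genes differed in level. Kdm6b on chromosome 11 (69398508 to 69420367), the inducible enzyme JMJD3, had 4845 and 6768 bp in the flox pair, and 4346 and 5225 bp in the KO pair, at 166.3 bp per kb. Both its strongest regions, at 69404390 to 69406597 and 69414762 to 69416990, were called in all 4 libraries, with scores of 199.9 to 563.8. Between them, a region at 69408622 to 69409945 was called in flox alone (1256 and 870 bp). Kdm6a on chromosome X (18160862 to 18279936), the UTX gene whose product works in the complexes of KMT2C and KMT2D, had 1273 bp in flox replicate 1, 879 bp in KO replicate 2 and none in the other libraries. Its only region was thus called once in each genotype. With a mean of 532.4 bp, Kdm6a was the tested gene of the set nearest to the minimum.

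Little or no 5hmC was called in the remaining genes. Of the 10 genes under the minimum for the test, Kdm1b, the other flavin-dependent demethylase, had no peak in any library. Kdm3a, a gene of an H3 lysine 9 demethylase, had 423 bp in flox replicate 1 alone, Setd5 had 1128 bp in flox replicate 2 alone, and Kdm4d, of the family of Kdm4b, had 882 bp in KO replicate 2 alone. Kdm5d, the chromosome Y member of the H3 lysine 4 demethylases, had 496 bp in KO replicate 1 alone. Kdm7a had 873 bp in flox replicate 1 and 910 bp in KO replicate 1, at separate sites (39188178 to 39189050 and 39150830 to 39151739 on chromosome 6). Setd6, a monomethyltransferase of the NF-kappaB subunit RelA, had 771 bp in flox replicate 2 and 730 bp in KO replicate 2, in 1 region shared by these libraries. At Kdm5c, the chromosome X counterpart of Kdm5d, a region called in all 4 libraries touched the edge of the 5 kb flank. Counted there were 53 and 55 bp in KO and 0 in flox. In all, 21 genes had a peak in each library, 12 in some libraries, and 1 in none.

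Seen as regions, made by merging overlapping peaks of the 4 lists, the set had 129 regions, 113 of them touching a gene of the set. In all 4 libraries 46 were called (35.7%, against 40.5% of the 81689 regions in protein-coding gene spans), and 46 in 1 library alone (35.7%, against 27.2%). Calls in the whole flox pair and not in KO made up 6 (4.65%, against 3.21%), and 5 had the reverse pattern (3.88%, against 2.74%). These 11 regions fell in 9 genes. A flox-only region was present in 6 of the 34 genes, where 10.8% of all protein-coding genes had one, and a KO-only region in 5 of the 34, against 8.71%. These shares compare spans of unlike length (median 48595 bp in the set, 17169 bp over all genes). No region at all was present in 22.9% of all genes and in 2.94% of the set. Among tested genes, 6 of the 24 had a flox-only region, against 15.7% of all 14162, and 4 of the 24 a KO-only region, against 12.5%. None of the 11 overlapped another protein-coding gene. Their peaks had low scores, with medians of 74.2 for flox-only and 69.2 for KO-only regions and 126.6 for regions called in all 4, next to 69.45, 69.64 and 124.8 over all peaks of these kinds. A score is the authors' own value, 10 times the negative log10 of the p-value of the peak in its library. The share of the 11 that reflects peaks near the calling limit was not tested.

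**Figure D5:**
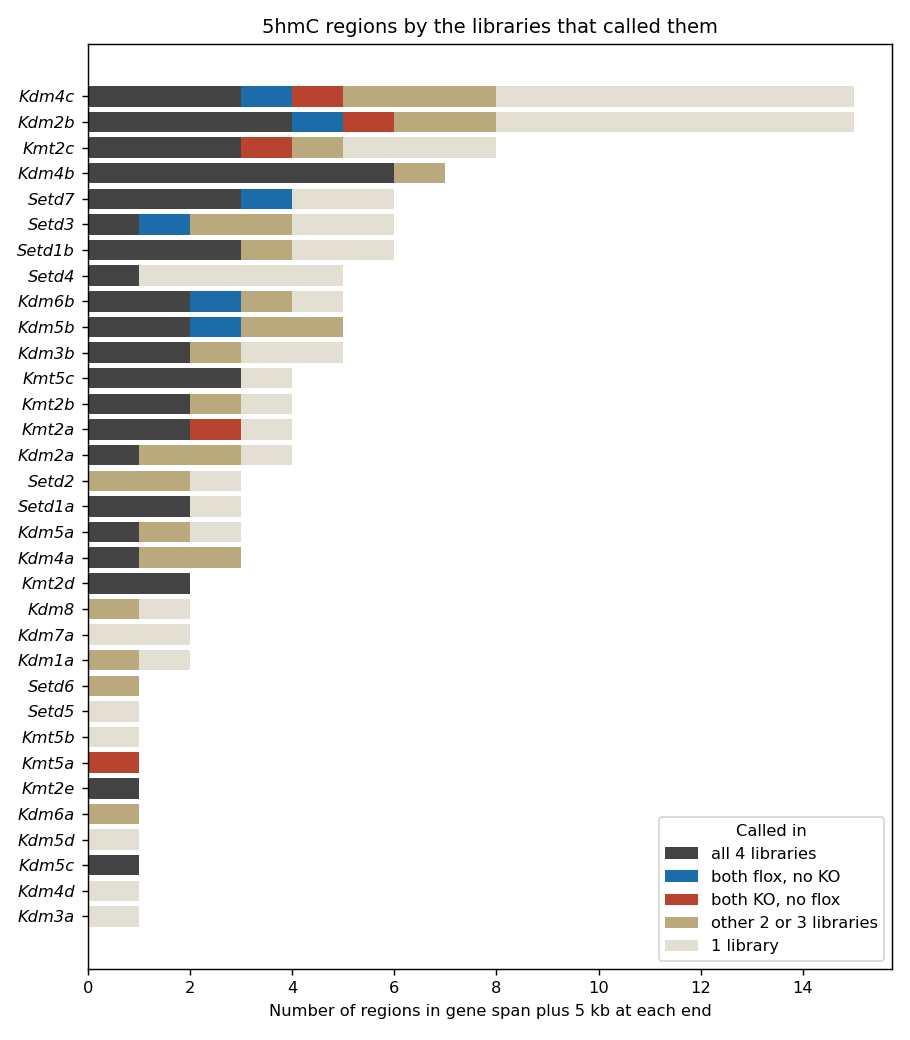
Number of 5hmC regions in the span plus 5 kb of the 33 genes with at least 1 region, coloured by the libraries that called them. Regions of 1 genotype (blue and red) make up 11 of 129, and Kdm4c and Kdm2b have 1 of each kind.

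Other genes of histone lysine methylation, chosen outside the symbol rule, were measured the same way. The table held 40 such genes and 28 were tested, 19 with a log2 difference below 0 and 9 above (median -0.15). Over all tested genes 54.6% were below 0. None passed limma's test, and 2 had an unadjusted p under 0.05, Ehmt2 (0.02) and Smyd3 (0.0358), which are named here after their values were seen. Ehmt2, the gene of the H3 lysine 9 methyltransferase G9a, had 5840 and 5861 bp in the flox pair, and 3973 and 2982 bp in the KO pair (log2 difference -0.67, SE 0.21, limma adjusted p = 0.773). Smyd3, a gene of the SET and MYND domain family, had 23581 and 26124 bp in the flox pair, and 20094 and 20004 bp in the KO pair (-0.29, SE 0.10, adjusted p = 0.789). The KO pair lay wholly below the flox pair in 7 of the 28, against 20.7% of all tested genes, and above in 4, against 14.6%. Setdb2, a gene of a SET domain protein related to H3 lysine 9 methyltransferases, had 1650 and 2118 bp in the flox pair, and 1018 and 0 bp in the KO pair (-1.44, SE 0.58, limma adjusted p = 0.815). Men1 encodes menin, which tethers KMT2A to chromatin, and had 2844 and 2336 bp in the flox pair, and 1619 and 284 bp in the KO pair (-1.25, SE 0.51, adjusted p = 0.815). In both genes KO replicate 2 was the lowest library, and without it the differences were -0.63 and -0.52. Above 0 stood Ezh2, the H3 lysine 27 methyltransferase gene, with 532 and 0 bp in the flox pair, and 671 and 1451 bp in the KO pair (1.08, SE 0.66, adjusted p = 0.846), and Smyd5, of the same family as Smyd3, with 444 and 476 bp in the flox pair, and 1101 and 936 bp in the KO pair (0.67, SE 0.41, adjusted p = 0.850).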

How the data were processed

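The 4 libraries of this comparison were 2 flox and 2 KO, grouped by their titles, and libraries from IgG or input DNA were not analysed here. Per the submitters' processing notes, the tools were CASAVA 1.8, Bowtie and MACS 1.4 and the builds GRCm38 and mm10, with no roles stated. Not given in the sources used here are settings, control library and duplicate handling. Each of the deposited lists gives the peaks of 1 library by start and end, with a score and a p-value. The score was checked to be 10 times the negative log10 of the deposited p-value within 0.02. Reads per library are not given, so depth and its error are unknown. Since each library had its own peak calling, a genome-wide shift in 5hmC need not appear as called length.

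Gene spans came from RefSeq (GRCm38.p6) and coordinates count from 1. Called length in the span plus 5 kb at each end was scaled to equal totals and transformed as log2(bp + 500). It was compared by limma 3.58.1 in R 4.3.3 (trend, robust, two-sided, Benjamini-Hochberg over all genes averaging 500 bp or more). On simulated data for 14162 genes, this test recovered 78 of 100 planted log2 differences of size 3 and 29 of 100 of size 1. It also made 9 false calls. The number of peaks was tested likewise as log2(peaks + 0.5) for genes averaging 1 peak or more. Regions are peaks of the 4 lists merged from 1 bp of overlap. No test of library sums was made, and an exact permutation test of 2 against 2 could not go below 0.333. Python 3.11.15, numpy 2.4.6, pandas 2.3.3, scipy 1.17.1 and matplotlib 3.10.9 were used. Members and lists were chosen with earlier results of these data known. Named with values were the 6 tested genes per direction with the largest difference and non-overlapping groups (5 and 2 qualified), the 5 with the most called length and the 5 with the most per kb, every gene with a region of 1 genotype or with no peak, and 2 per direction of the other list. Further genes of the set are given by called length alone. Alternatives changed the peaks kept, the pseudocount, the filter, the interval, the scaling or the limma options, counted peaks, added a replicate block, or left out 1 library at a time.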

Additional observations from a re-analysis of the deposited data

How the results depend on the processing

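No gene of the set was called under any of the 17 alternatives, and no gene of the table in 16 of them. By number of peaks 12 of 13120 genes (0.0915%) were called, none of the set. All 12 have equal peak numbers within each group. The genes at an unadjusted p under 0.05 numbered 557 with a minimum of 2000 bp and 307 within 2 kb of gene ends, where fewer genes are tested. Leaving out 1 library at a time gave 665 to 786.

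With a score of at least 100 and with the 50000 highest scored peaks, 8 genes of the set were lower in KO in each case (19 and 18 tested), with 8 at a minimum of 2000 bp (15 tested) and 3 within 2 kb of gene ends (9 tested). The number higher was 7 without the 10% of peaks with the lowest scores, 7 at a minimum of 2000 bp, 6 within 2 kb of gene ends, 6 by number of peaks and 6 to 11 with 1 library left out, which gave 13 to 18 lower. The median of the set was 0.18 with a score of at least 100, 0.032 with the 50000 highest scored peaks, -0.019 with a pseudocount of 2000, -0.027 with no minimum, -0.13 at a minimum of 2000 bp and over gene spans alone, 0.085 within 2 kb of gene ends and -0.16 to -0.059 with 1 library left out. Its sign thus turned with the peaks kept, and the cause was not tested.

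Setd7 turned to 0.14 without the 10% of peaks with the lowest scores. Setd1a turned to 0.18, 0.21 and 0.27, and Kmt2a to -0.049, -0.019 and -0.077, with a score of at least 100, with the 50000 highest scored peaks and within 2 kb of gene ends. The cause was not tested. Kdm1a, Kdm4b, Kmt2d, Kmt2c, Setdb2, Men1, Ezh2 and Smyd5 kept their sign in every alternative that gave a value. The regions of the set numbered 1 flox-only, 1 KO-only and 19 called in all 4 libraries with a score of at least 100, and 2, 0 and 18 with the 50000 highest scored peaks.

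With the replicate block 0 genes were called and 882 had an unadjusted p under 0.05. Libraries of the same number shared little (r = 0.006 between their deviations from the group means over 14162 genes), so the numbers were not taken to pair them.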
